A study of Oncorhynchus mykiss with 6 samples.

Results

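LEAP-2, the liver-expressed antimicrobial peptide 2, was represented by 2 genes, leap-2b and leap2, among the 5045 genes in the deposited table of liver RNA-seq from rainbow trout (Oncorhynchus mykiss). Both were taken by symbol, as every row whose symbol starts with leap2 or leap-2. No other listed gene had a description that starts in the same way. The authors' deposited table holds only genes selected on the difference between the groups. Its highest adjusted p is 0.049875 and its smallest log2 fold change, sign ignored, is 1.00019. The members were therefore chosen by the same FPKM values and counts that are compared below (FPKM is fragments per kilobase of transcript, scaled to the mapped fragments of the library), so their changes are given as a description, with no test.

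The study had 3 liver libraries of a control group at 18 °C and 3 of a heat stress group kept for 8 h at 24 °C. The design text asks how liver mRNA profiles differ under heat. The sample labels speak of the liver itself as the thing placed at each temperature. They give no strain, age, sex or treatment other than temperature, and do not tie each library to a fish of its own, so the spread between libraries may be technical. Counts over the listed genes ranged from 1409460 to 1421082 in control and from 2663575 to 3586127 in heat. The absolute whole-library depth is unknown. Relative library totals, recovered from count and FPKM with control replicate 1 set to 1, were 0.999 and 1.02 in the other control libraries. In heat they were 1.55, 1.17 and 1.14, so the counts over the listed genes overstate the difference in depth. Of 25 hepatocyte marker symbols, 5 rows were among the listed genes, and the most abundant was rbp4, the plasma retinol carrier, at 5950 ± 207 FPKM in control and 1998 ± 136 FPKM in heat (SD, n = 3). No erythrocyte marker was listed under the symbols sought. The list leaves out genes that did not change, so this does not show that blood cells were absent.

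LEAP-2 is a small, cationic, secreted peptide held in shape by disulfide bonds, and is made as a longer precursor that enters the secretory pathway. Its transcripts are typically abundant in vertebrate liver. In fish LEAP-2 genes have been studied as part of innate defence against bacteria, and in mammals LEAP2 also blocks the ghrelin receptor and its level in blood follows feeding. Each symbol has 1 entry among the RefSeq genes of assembly USDA_OmykA_1.1, leap2 carries the synonym leap-2a, and the genes lie on different chromosomes. Positions are left out, since the build behind the deposited values is not given in the sources used here.

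The gene leap-2b was one of the most abundant listed transcripts in control liver and was reduced to a small part of that level in heat. The control libraries, replicates 1 to 3, held 851.03, 834.173 and 806.301 FPKM. The heat libraries held 43.769, 48.431 and 40.915 FPKM. Every heat library was far below every control library, and the groups did not overlap, as held for 99.4% of all listed genes. The means were 830.5 ± 22.6 FPKM in control and 44.4 ± 3.79 FPKM in heat (SD, n = 3 per group), so that 5.34% of the control level was left. The limma-voom log2 fold change was -4.23 ± 0.0583 (SE), a level 18.75-fold lower in heat. These values rest on 14309, 14008 and 13878 reads in the control libraries and on 1144, 956 and 781 reads in the heat libraries, so the precision of the heat level is the lower one.

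The gene leap2 was the less abundant and less reduced of the pair. The control libraries held 76.218, 76.801 and 66.968 FPKM, from 2347, 2362 and 2111 reads. The heat libraries held 33.967, 33.415 and 34.383 FPKM, from 1626, 1208 and 1202 reads. The groups did not overlap, as held for 99.4% of all listed genes, and control replicate 3 was the lowest control library for both genes. The means were 73.3 ± 5.52 FPKM in control and 33.9 ± 0.486 FPKM in heat (SD, n = 3 per group), which left 46.3% of the control level. The limma-voom log2 fold change was -1.11 ± 0.063 (SE), a level 2.16-fold lower in heat.

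Of the 4766 listed genes with enough reads to test, 41.9% fell by limma-voom with an adjusted p (Benjamini-Hochberg) under 0.05, and both LEAP-2 genes were among them. All tested genes passed in 1 direction or the other, because the list had been selected on this contrast, so nothing is read from that count. A fall of at least 16-fold was seen in 0.567% of the tested genes, leap-2b among them. The gene leap2 lay close to the limit of the list. In the authors' deposited table its log2 fold change was -1.11218, and 314 of the 2165 listed genes with a negative value had a smaller fall.

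**Figure D1:**
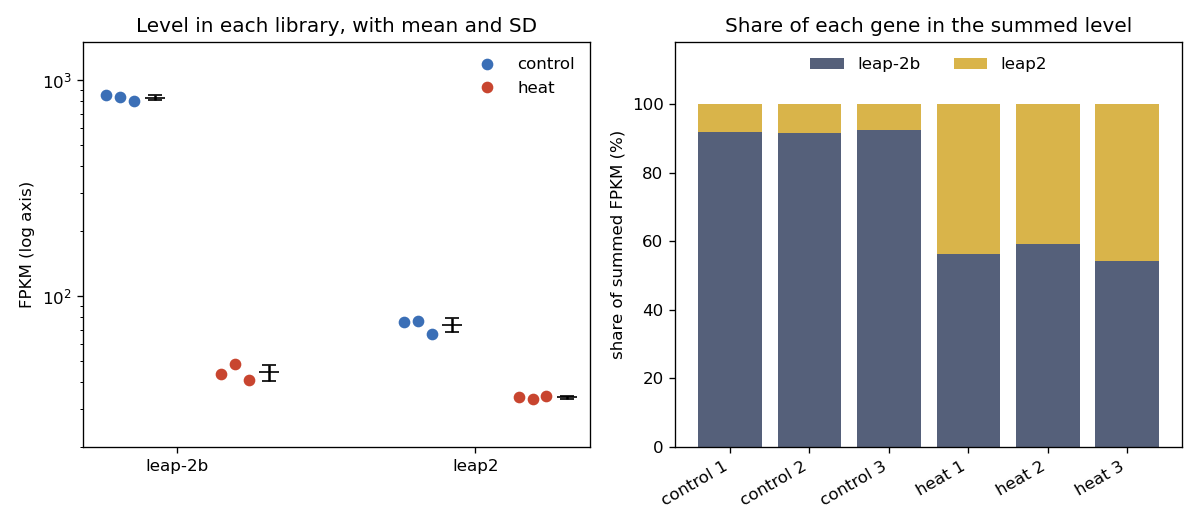
Left, FPKM (log axis) of leap-2b and leap2 in each library, with control points in blue, heat points in red, and the mean and SD of each group in black. Right, the share in percent of each gene in the summed FPKM of both, per library. The share of leap-2b lies between 91.6% and 92.3% in control and between 54.3% and 59.2% in heat.

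The genes differed in how much of their level was left, and the composition of the LEAP-2 transcripts changed with it. Within each library the FPKM of leap-2b was 11.17, 10.86 and 12.04 times that of leap2 in the control libraries, replicates 1 to 3. It was 1.29, 1.45 and 1.19 times that of leap2 in the heat libraries. This ratio does not depend on how libraries are scaled, because both genes share the library, and its mean was 8.68 times larger in control than in heat. The difference between the log2 fold changes, leap-2b minus leap2, was -3.12. The summed level of both genes was 903.8 ± 27.7 FPKM in control and 78.3 ± 3.31 FPKM in heat (SD, n = 3), 11.5-fold lower. Of the FPKM that the pair lost, 95.2% belonged to leap-2b. The mean share of leap-2b in the sum was 91.9% ± 0.393 in control and 56.6% ± 2.43 in heat (SD, n = 3). In raw reads leap2 exceeded leap-2b in every heat library, with 0.65 to 0.791 reads of leap-2b for each read of leap2. FPKM reverses that order because the length used for leap2 was 1.83 times that used for leap-2b, as the ratio of count to FPKM shows. How reads that match both genes were assigned is not given in the sources used here.

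Among all 5045 listed genes leap-2b ranked 6 by mean FPKM in control and 206 in heat, and leap2 ranked 99 in control and 266 in heat. In control, leap-2b alone took between 0.977% and 1.02% of the reads over the listed genes. In heat it took between 0.0293% and 0.0346%. The reads over the listed genes grew more with heat than the library totals used for scaling, so these shares exaggerate the fall. None of the tested genes with at least 100 FPKM in control had a larger fall than leap-2b, which ranked 20 by size of fall among all 4766 tested genes. Of the 6 tested genes at or above its control level, 4 fell, leap-2b included. By contrast, leap2 ranked 1697 by size of fall, and 42 genes at or above its control level fell more.

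**Figure D2:**
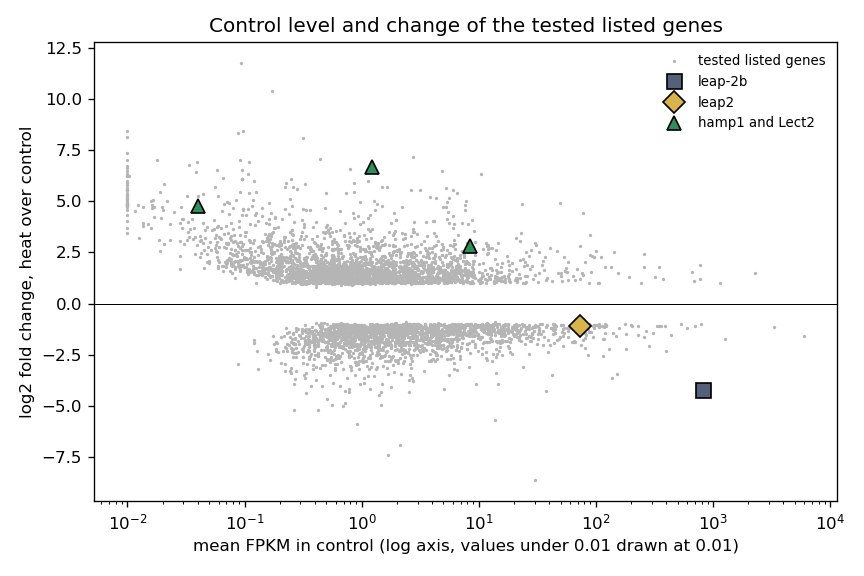
Mean FPKM in control (log axis) against the log2 fold change of heat over control by limma-voom for each of the 4766 tested listed genes, in grey. The square is leap-2b at 830.5 FPKM and -4.23, the diamond is leap2 at 73.3 FPKM and -1.11, and the triangles are the hamp1 genes and Lect2. The empty band around 0 comes from the authors' selection of genes.

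The spread between libraries was of a different size in the pair. The coefficient of variation of leap-2b was 2.72% in control and 8.55% in heat, and that of leap2 was 7.52% in control and 1.43% in heat. Counting error alone gives about 0.843% and 3.26% for leap-2b and 2.1% and 2.75% for leap2. Listed genes within 2-fold of the same level had a median coefficient of variation of 3.12% (11 genes) and 4.66% (263 genes) for leap-2b, and of 4.0% (126 genes) and 5.04% (342 genes) for leap2. With 3 libraries per group, these coefficients are themselves imprecise.

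By the root mean square difference of centred log2(FPKM + 1) profiles over the 6 libraries, genes near leap-2b included ENDOD1, an endonuclease domain gene, at a difference of 0.376, and ndrg1a, of the N-myc downstream regulated family, at 0.424. ENDOD1 stood at 136.5 ± 9.03 FPKM in control and 10.97 ± 1.32 FPKM in heat, and ndrg1a at 150.7 ± 2.89 and 13.8 ± 0.893 FPKM (SD, n = 3). The profile of leap2 had closer neighbours, which were rps27, a gene of the small ribosomal subunit, at 0.0292, the kinase gene stk10 at 0.0299 and a copy of Nlrc3 at 0.0335. Here rps27 stood at 105.9 ± 8.83 FPKM in control and 49.2 ± 0.832 FPKM in heat. All libraries of a group share 1 treatment, so likeness over 6 libraries mostly reflects the size of the change in log2(FPKM + 1). Adding 1 FPKM shrinks the change of genes at low levels, so near profiles need not have equal folds. The limma-voom log2 fold change was -1.39 for stk10, against -1.11 for leap2. For this Nlrc3 copy, at 1.86 FPKM in control and 0.303 FPKM in heat, it was -2.57.

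Under the symbols sought for other antimicrobial peptides and proteins, the listed genes were the hamp1 copies and Lect2, which were higher in heat. Of 36 symbols sought for antimicrobial peptides and proteins, 3 rows were listed and all 3 rose with limma-voom (adjusted p under 0.05), against 58.1% of all tested genes, which came from the same selection, so 3 rows say little about antimicrobial genes as a group. Their median log2 fold change, 4.77, is the value of the less abundant hamp1 gene described below, and that of all tested genes was 1.13. The more abundant hamp1 gene, which encodes hepcidin, the iron-regulating hormone and antimicrobial peptide of the liver, stood at 1.096, 0.732 and 1.836 FPKM in control. In heat it stood at 105.03, 100.875 and 100.564 FPKM, a log2 fold change of 6.68 ± 0.387 (SE). At 24 °C this hepcidin transcript was therefore above both LEAP-2 genes in every library, whereas in control it was below both. A second hamp1 gene was low, with 2 reads in all of control and 112 in all of heat, a ratio of 43.81 (95% exact interval 11.8 to 366, which covers counting error only). This gene passed the filter of at least 10 counts in 3 libraries only through heat. It could therefore only be called as risen, and nothing is read from the median that rests on it. Lect2, a secreted liver chemotactic factor, rose from 8.35 ± 0.39 to 58.3 ± 2.37 FPKM (SD, n = 3), or by 2.8 ± 0.154 (SE) on the log2 scale.

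Acute-phase and complement genes, which hepatocytes also secrete, rose in all 10 listed rows with limma-voom, with a median log2 fold change of 1.58. Over all tested genes 58.1% rose, and the median was 1.13. The 10 rows do not carry 10 different symbols, since c3, HP and FGA have more than 1 row each. Such copies may not be independent of each other. The haemoglobin scavenger gene HP reached 6491 ± 103 FPKM in heat from 2298 ± 69.6 FPKM in control in its more abundant copy, and the complement factor gene cfb reached 1492 ± 18.2 from 690.9 ± 34.5 FPKM (SD, n = 3). The summed level of the 10 rows was between 4123 and 4374 FPKM in control and between 11840 and 12050 FPKM in heat. Most of it came from the HP copies. The summed level of LEAP-2 was lower in heat. In bulk liver, fewer cells of a type and less RNA per cell cannot be told apart. Of the 5 listed hepatocyte marker rows, 3 rose and 2 fell. Among those that rose, FGA and fga are also counted in the acute-phase list. Markers that did not change could not be in the authors' selected list, so these rows do not show how hepatocyte markers behaved as a set. The same limit holds for the markers of other cell types below. The summed level of the listed hepatocyte rows was between 5915 and 6293 FPKM in control and between 2695 and 2902 FPKM in heat. Most of that sum was rbp4, with means of 5950 FPKM in control and 1998 FPKM in heat, so it mainly follows this gene. The other row that fell, fabp1, went from 28.46 to 10.26 FPKM. Of those that rose, FGA went from 97.35 to 450.1 FPKM, fga from 80.3 to 303.7 FPKM and APOB from 0.0877 to 26.29 FPKM. This APOB row had only 45 reads in all of control, so it says little about hepatocytes at 18 °C. Symbols of myeloid markers matched 5 rows, of which 4 were tested and rose. The 5 rows summed to between 0.827 and 0.954 FPKM in control and between 8.84 and 11.4 FPKM in heat. All but mmp9 carry the symbol Cd163, and most of these have a description that starts with deleted, so their identity is uncertain. The tested Cd163 rows had only 4, 4 and 1 reads in all of control, the first being the row whose description starts with scavenge. They passed the filter of at least 10 counts in 3 libraries only through heat, so they could only be called as risen. The intestine, where LEAP-2 genes are also active in vertebrates, had 4 listed marker rows, of which 3 rose and 1 fell, with summed levels between 23.4 and 31.3 FPKM in control and between 19.2 and 22.2 FPKM in heat. Most of the control sum was fabp2 (mean 21.2 FPKM) and most of the heat sum was CDX1 (mean 13.33 FPKM), so the sums mainly follow single genes. With median-of-ratios scaling 2 of these rows rose and 1 fell, where 1733 of all 4766 tested genes rose and 1996 fell. The anpepa row had 7 reads in all of control and passed the count filter only through heat, so it could only be called as risen. Markers of pancreas had 3 listed rows, summing to at most 0.195 FPKM in a control library and to between 2.75 and 4.37 FPKM in heat. Each of these rows had 1 read in all of control, and they had 62, 39 and 26 reads in all of heat. Only 1 of the 3 had enough reads to test. The 1 listed lymphocyte marker by symbol, IL7R, rose to 2.79 ± 0.055 from 0.975 ± 0.378 FPKM (SD, n = 3). Its description starts with uncharac, so its identity is uncertain. The 1 listed stroma marker, col1a1b, fell to 9.17 ± 0.304 from 22.7 ± 1.41 FPKM (SD, n = 3). The part of these other cell types in the LEAP-2 values was not tested.

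Most listed genes of pathogen sensing and inflammatory signalling were higher in heat. Of 18 listed rows, 17 were tested, and 16 rose and 1 fell with limma-voom, with a median log2 fold change of 1.74, where 58.1% of all tested genes rose and their median was 1.13. The most abundant copy of NFKBIA, the inhibitor that NF-kB itself induces, rose from 38.5 ± 1.08 to 91.6 ± 2.12 FPKM, and the NF-kB subunit gene Relb rose 15.6-fold to 43.5 ± 0.997 FPKM in its more abundant copy (SD, n = 3). The other NFKBIA copies rose 3.34-fold and 3.4-fold. NFKBIA, Relb, Nfkb2, Socs3 and Irak3 have more than 1 row each, and such copies may not be independent of each other. The bacterial flagellin receptor gene tlr5, rose 7.35-fold, and the member that fell was tlr3, a receptor for double-stranded RNA, at a log2 fold change of -1.37, both named after their values were seen. With median-of-ratios scaling 11 of these rows rose in place of 16, where 1733 of all 4766 tested genes rose in place of 2770. With TMM scaling 16 rows rose.

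Most of the listed liver transcription factor genes fell. Of 10 listed rows, 8 fell and 2 rose with limma-voom, with a median log2 fold change of -1.23, where 41.9% of all tested genes fell and their median was 1.13. Among those that fell, nr0b2a had 9 reads in all of heat and passed the count filter only through control, so it could only be called as fallen. The hepatocyte nuclear factor gene hnf4a, named after its value was seen, stood at 16.077, 13.639 and 16.072 FPKM in control and at 3.428, 4.666 and 2.713 FPKM in heat, a 4.32-fold fall. Among the most abundant rows, 1 copy of Nr0b2, a corepressor of bile acid synthesis, fell 2.53-fold and another rose 2.33-fold. The bile acid receptor gene Nr1h4 fell 2.17-fold, and the pioneer factor gene foxa2 rose 2.65-fold, while Foxa1, named after its value was seen, fell 2.04-fold.

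**Figure D3:**
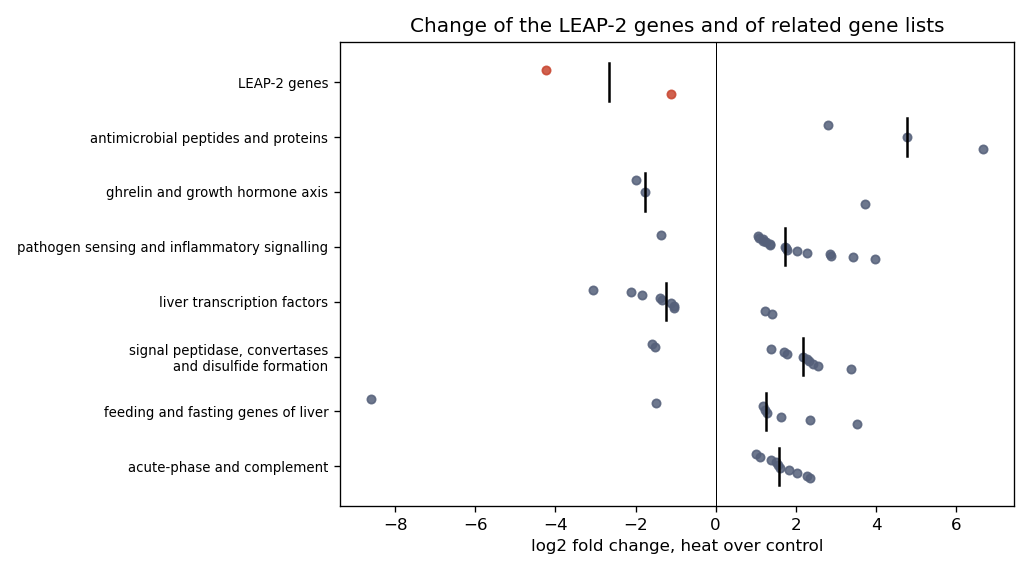
Log2 fold change of heat over control by limma-voom for each tested gene (points) of the LEAP-2 pair and of 7 related lists (rows), with the median of each as a vertical bar. The LEAP-2 genes lie at -4.23 and -1.11, the antimicrobial genes between 2.8 and 6.68, and all genes of the acute-phase list lie above 0.

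Listed genes for steps that mature secreted, disulfide-bonded peptides in general moved in both directions. Whether they act on the LEAP-2 precursors was not tested. Of 11 listed rows for signal peptidase, proprotein convertases and disulfide formation, 9 rose and 2 fell with limma-voom, with a median log2 fold change of 2.17 (all tested genes, 58.1% and 1.13). The 9 that rose were disulfide isomerase or oxidoreductase genes, named as a class after their values were seen. Among the most abundant rows PDIA6 rose from 89.1 ± 3.88 to 919.4 ± 17.5 FPKM, the copies of PDIA4 rose 5.88-fold and 3.43-fold, and pdia3 rose 3.27-fold. The 2 that fell were both copies of Pcsk6, a convertase gene, at 2.87-fold and 2.98-fold. PDIA6, PDIA4, pdia3 and ero1b also have several rows each, and such copies may not be independent of each other. No signal peptidase subunit and no furin gene was listed under the symbols sought.

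On the ghrelin side, neither ghrelin, its receptor nor its acyltransferase was among the listed genes under the symbols sought. The 3 listed rows of the ghrelin and growth hormone list were the copies of igf1, the liver growth factor under growth hormone control, which fell 3.39-fold and 3.93-fold, and igfbp1a, a carrier that binds insulin-like growth factors, which rose from 0.501 ± 0.137 to 7.39 ± 1.98 FPKM (SD, n = 3). Of 8 listed feeding and fasting genes, 6 rose and 2 fell with limma-voom, with a median log2 fold change of 1.26. That is close to the 58.1% and the median of 1.13 over all tested genes, so nothing is read from the count. With median-of-ratios scaling 3 rose and 2 fell, where 1733 of all 4766 tested genes rose and 1996 fell. The gluconeogenic gene pck1 rose 11.6-fold and G6PC, which releases glucose from the liver, rose 5.09-fold, whereas the leptin receptor gene LEPR fell 2.82-fold.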

How the data were processed

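Liver RNA-seq from 3 control and 3 heat libraries was used, grouped by the treatment in the labels. The submitters' processing notes name Bowtie2 2.2.8 and StringTie. Not given in the sources used here are the build, the annotation and the test of the authors. Per the file headers, the authors deposited per gene a read count and an FPKM value for each library, group means, a log2 fold change, a p-value and an adjusted p. The text is fixed-width with 8 characters per field, so symbols and descriptions are cut, and 822 lines of wrapped annotation were left out.

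Because of this layout the counts could not be machine-checked, so limma-voom (limma 3.58.1, R 4.3.3) was used on the whole-number counts of all listed genes with at least 10 counts in 3 libraries. Libraries were scaled by their relative totals, taken as the median of count over FPKM (genes with at least 200 counts and 5 FPKM). P-values were adjusted by Benjamini-Hochberg over 4766 genes. The fit was tested on simulated data. In those data most genes did not change and the library totals were given, unlike in this selected list. The other values and the plots were made with scipy 1.17.1, pandas 2.3.3, numpy 2.4.6 and matplotlib 3.10.9 in Python 3.11.15.

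The members and gene lists were chosen with earlier results of these data known. Besides the members, the text names the 3 genes nearest to each in profile, and from each list up to 4 genes by mean FPKM. Some genes that this rule takes are not reported here. Alternatives were other scalings, filters and pseudocounts, a replicate block and leaving out each library.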

Additional observations from a re-analysis of the deposited data

How the results depend on the processing

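The 13 alternatives left both LEAP-2 genes lower in heat. Only scaling over the listed genes moved their log2 fold changes beyond the spread between libraries, to -5.12 for leap-2b and -2.003 for leap2 with median-of-ratios factors and to -4.72 and -1.60 with TMM factors. Median-of-ratios scaling assumes that most listed genes do not change and moved the median of all tested genes by -0.892. With it 1733 genes rose and 1996 fell, in place of 2770 and 1996. The difference between the LEAP-2 genes stayed between -3.19 and -3.06 in all 13. Scaling cancels in this difference and the count filters keep both genes, so those settings, all at -3.12, could hardly move it. With at least 50 counts in 3 libraries, 3272 genes were tested and 1201 fell. Leaving out single libraries kept leap-2b between -4.29 and -4.18 and leap2 between -1.17 and -1.07. With the replicate number as a block, leap2 stood at -1.113 and the count of falls was 1996. Same-numbered libraries did not visibly deviate together (correlations of 0.0267, 0.0116 and -0.00931). No pairing by number was seen, but counting noise could hide a weak one. The edgeR and DESeq2 alternatives were not run, because the counts could not be machine-checked.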
